A study of Mus musculus with 6 samples.

Results

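The genes described are the ligands, receptors, inhibitors, signaling proteins and nuclear factors of the Wnt pathway in MC3T3-E1 cells, a mouse osteoblastic line of which 1 subclone was used. They were chosen by gene symbol alone, with no expression value, and 49 of the 8565 genes with a named probe past the detection filter matched. These 49 genes had 82 probes, and 40 of them were detected on all 6 arrays. Among RefSeq coding genes 90 match the same symbols, so 41 had no named probe past the filter and are not analysed here. Those 41 include Lef1, Tcf7, Dkk1, Dkk2, Lgr4, Dvl2, Dvl3, Wnt1 and Wnt3a.

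Cells were exposed to rest-inserted flow (RF), continuous flow (CF) or no flow (NF), and RNA was taken 1 h after flow had ended or at its end (0 h). RF consisted of 4 bouts, each 5 min of flow and then 10 min of rest. CF was 1 bout of 60 min, and NF cells received none. Flow was produced by orbital shaking of the culture plates, all cells were grown in the same medium, and each of the 6 arrays held RNA pooled from 3 experiments. There was thus 1 array for each condition, and the spread between experiments cannot be measured.

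Wnt proteins are secreted lipid-modified ligands that bind Frizzled receptors together with the co-receptors Lrp5 or Lrp6. Binding stops the complex of Axin, Apc, Gsk3 and casein kinase 1 from marking beta-catenin for breakdown, and beta-catenin then joins Tcf and Lef factors on DNA, where Tle corepressors otherwise sit. In bone the pathway drives osteoblast differentiation, and loss of Lrp5 in humans lowers bone mass.

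Between 13472 and 14426 probes were detected on an array, and the median signal of the detected probes lay between 105 and 123. Of 9 osteoblast markers, 6 had a named probe past the filter and 5 were detected on all arrays, among them Col1a1 with a mean log2 intensity of 12.15. Runx2 had no named probe past the filter and Alpl was detected on 2 arrays. Of the markers of other cells, 0 of 6 adipocyte, 1 of 6 muscle, 1 of 6 endothelial, 2 of 8 macrophage and osteoclast, 1 of 6 osteocyte and 2 of 7 chondrocyte markers passed. In RNA from whole cultures, fewer cells of a type and less RNA per cell cannot be told apart.

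Values are log2 intensities after the quantile normalization of the study, in which a difference of 1 is a doubling. Each gene was represented by its probe with the highest mean, and differences were fitted in limma on flow and time point, with p-values adjusted by the Benjamini-Hochberg method over all 13182 named probes. Levels of different probes on these arrays cannot be set against each other as amounts of RNA, so genes were compared by their differences between conditions. Brightness served to choose probes and the genes to name. Means over marker probes are given to compare arrays, not genes.

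Coverage differed between the roles. Among the 49 members past the filter, all 12 nuclear factors and 9 of 12 cytoplasmic signaling proteins were detected on all 6 arrays. So were 8 of 11 receptors and co-receptors. These counts leave out genes with no named probe past the filter, such as the nuclear factors Lef1, Tcf7 and Tle3. The cytoplasmic Csnk1a1, Gsk3a, Dvl2 and Dvl3 and the receptors Fzd3, Fzd4, Fzd6 and Ror1 are also left out. Counted instead over the RefSeq coding genes of a family, 5 of 19 Wnt genes and 1 of 4 R-spondin genes had a probe past the filter. Among the secreted inhibitors, 1 of 4 Dkk genes and 2 of 4 Sfrp genes did. All 3 of Lrp4, Lrp5 and Lrp6 and 5 of 6 Tle genes were present, against 5 of 10 Frizzled genes and 0 of 3 Lgr genes, which encode the receptors of R-spondins.

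Differences between flow and NF were small in the Wnt pathway genes. In the mean of both flows against NF, limma called 0 of the 82 member probes at an adjusted p under 0.05, and the percentage called among all probes was 0 in each direction. At an unadjusted p under 0.05 stood 7 of the 49 genes, against 6.1% of all probes. These were Apc, Apc2, Csnk1e, Fzd1, Fzd8, Rspo2 and Sfrp1, of which Csnk1e and Rspo2 were detected on every array. Apc2 passed the detection filter only through an RF array, and Fzd1, Fzd8 and Sfrp1 only through NF arrays. Each was higher in that group, so the filter itself favours a difference and the count is no support for an effect of flow. The count also takes 1 probe a gene, whereas the percentage is over all probes. Across the 40 genes detected on all arrays the median log2 difference was 0.04, with 27 above 0 and 13 below. Across all 7320 genes so detected it was 0.00, with 3590 above 0 and 3730 below. The fitted differences of the 40 ran from -0.29 to 0.26. The plot of difference against intensity shows them within the cloud of other genes.

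**Figure D1:**
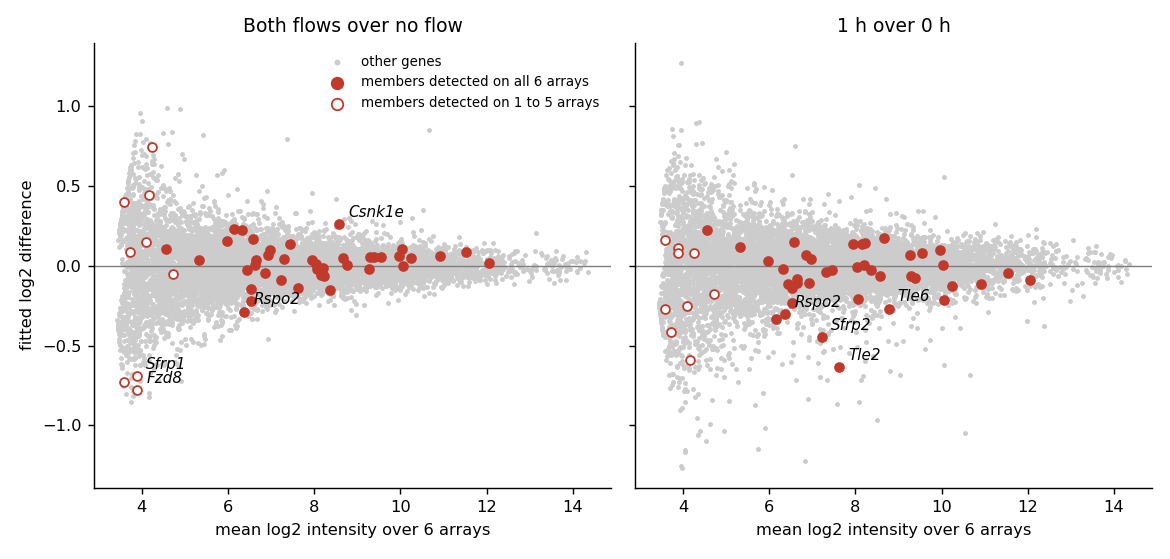
Fitted log2 difference (y axis) against mean log2 intensity over 6 arrays (x axis) for both flows over no flow (left panel) and 1 h over 0 h (right panel). Grey points are other genes, filled red points are the 40 members detected on all arrays and open points the 9 detected on 1 to 5 arrays. The members with the largest differences for flow are dim, whereas for time Tle2 at -0.64 and Sfrp2 at -0.45 stand lower than the other members detected on all arrays.

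Each flow alone gave the same count of calls. For RF over NF, 0 of 82 probes were called and 6 of 49 genes had an unadjusted p under 0.05, against 5.39% of all probes. For CF over NF, 0 were called and 7 of 49 genes were under 0.05, against 6.1% of all probes. RF and CF share the NF arrays, so these counts are not independent. Both counts include Fzd1, Fzd8 and Sfrp1, which passed the filter only through NF arrays. With the variance prior of limma following the intensity, 0 member probes were called in either flow or in their mean, against 0.0455% of all probes called higher for CF and for the mean and 0 for RF.

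Csnk1e, casein kinase 1 epsilon, which phosphorylates Dvl and Lrp6, had the highest mean of both flows over NF among genes detected on all arrays. Its log2 intensity was 8.60 with RF and 8.73 with CF, against 8.29 with NF, at 1 h, and 8.64 with RF and 8.68 with CF, against 8.50 with NF, at 0 h. All 4 flow arrays lay above both NF arrays. The second Csnk1e probe had 8.31 and 8.36 with RF and CF, against 7.98 with NF, at 1 h, and 8.42 and 8.38, against 8.16 with NF, at 0 h, and again the flow and NF arrays did not overlap. The fitted difference was 0.26 ± 0.09 (SE, 6 arrays) for the first probe and 0.29 ± 0.08 for the second, and limma's adjusted p of 0.79 and 0.72 left both uncalled.

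Rspo2 encodes an R-spondin, a secreted protein that strengthens Wnt signals by keeping Frizzled receptors on the cell surface. It was the lowest with flow among the genes detected on all arrays. At 1 h it had 6.08 with RF and 6.16 with CF, against 6.42 with NF, and at 0 h 6.43 with each of RF and CF, against 6.70 with NF. Flow lay below NF at both time points by nearly the same amount, and 1 h lay below 0 h in each flow condition, so the NF array at 1 h nearly equalled the flow arrays at 0 h. The difference for flow was -0.29 ± 0.07 (SE) with an adjusted p of 0.70 in limma, and the difference for time was -0.30 ± 0.07 with an adjusted p of 0.38.

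The Wnt ligands did not share a direction. Wnt5a, which mostly signals through Ror2 and Ryk rather than beta-catenin, had 7.07 with RF and 7.0 with CF, against 6.90 with NF, at 1 h, and 6.95 and 6.98 with RF and CF, against 6.90 with NF, at 0 h. The flow arrays did not overlap the NF arrays, but the difference was only 0.10 ± 0.07 (SE). Its second probe also averaged 0.10 higher with flow, although there the CF array at 1 h lay below the NF array of that time.

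Wnt10b, a ligand that promotes bone formation in mice, had a difference of 0.17 ± 0.10, and 4 of 4 flow arrays lay above the NF array of the same time. Wnt10a lay above NF at 1 h and below NF at 0 h in both flows. It fell short of the 0.3 on each side set for listing a change of sign, which only CF at 1 h reached, at 0.32. It had 8.06 with RF and 8.15 with CF, against 7.83 with NF, at 1 h, and 7.82 with RF and 7.80 with CF, against 8.01 with NF, at 0 h. The mean effect of flow on Wnt10a thus lay 0.48 higher at 1 h than at 0 h, the highest such change among the 40 genes, whose median absolute change was 0.11 beside 0.12 over all genes detected on all arrays. A single array stands behind each value, so this change has no test. Wnt6, which lies next to Wnt10a on chromosome 1 with 0 coding genes between them, had a flow difference of -0.03 on its brighter probe.

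Porcn attaches the lipid that Wnt proteins need for secretion, and Wls carries them to the cell surface. Porcn was lower with flow on every array pair. Its log2 intensity was 6.42 with RF and 6.21 with CF, against 6.63 with NF, at 1 h, and 6.65 with RF and 6.56 with CF, against 6.74 with NF, at 0 h. The difference was -0.22 ± 0.08 (SE), with an adjusted p of 0.81 in limma. Wls had a difference of 0.06, and its 5 probes ran from -0.01 to 0.12.

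Of the receptors, Fzd7 had the highest flow difference among those detected on all arrays. It had 6.41 with RF and 6.34 with CF, against 6.18 with NF, at 1 h, and 6.33 and 6.51 with RF and CF, against 6.16 with NF, at 0 h. The flow arrays stood above both NF arrays, with a fitted difference of 0.23 ± 0.09 and an adjusted p of 0.81. Ror2, a receptor of Wnt5a, lay lower with flow in 4 of 4 pairs at -0.14 ± 0.07. Fzd5 and Fzd2 had differences of -0.01 and -0.05, Ryk 0.06 and Lrp4 -0.06.

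**Figure D2:**
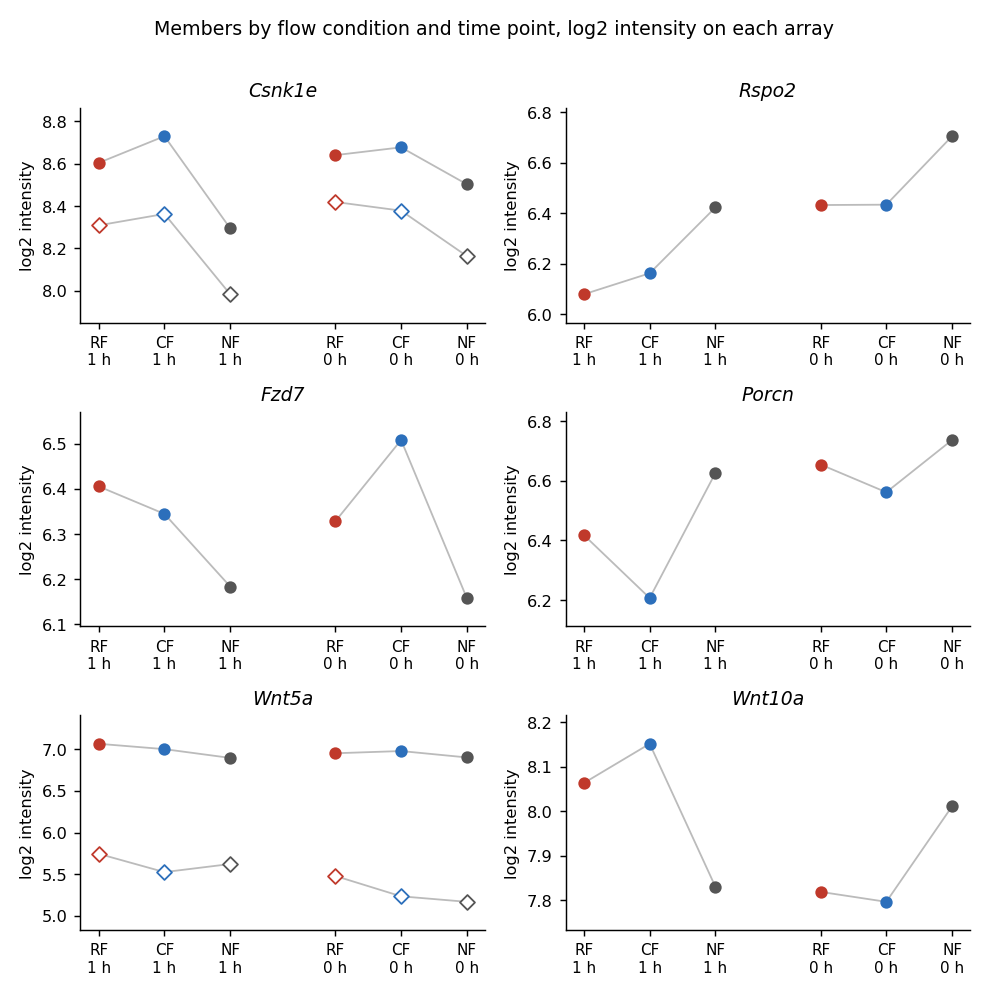
Log2 intensity (y axis) of 6 Wnt pathway genes on each of the 6 arrays, labelled RF, CF and NF for rest-inserted, continuous and no flow at 1 h and 0 h (x axis); filled circles are the probe that represents the gene, open diamonds its second probe, and grey lines join arrays of one time point. For Csnk1e and Fzd7 the 4 flow arrays stand above both NF arrays, and for Wnt10a the order of flow and NF differs between 1 h and 0 h.

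Most bright genes of the pathway's core differed little between flow and NF. Ctnnb1, which encodes beta-catenin, had 10.07 with RF and 10.06 with CF, against 9.92 with NF, at 1 h, and 9.88 with RF and 9.95 with CF, against 9.93 with NF, at 0 h. Its difference was 0.06 ± 0.08, and its 4 probes ran from -0.22 to 0.06. Axin1, the scaffold of the destruction complex, had 0.06, Gsk3b 0.06 and Dvl1 0.04, each smaller than its SE of 0.07 to 0.08. Csnk1g2, a casein kinase 1 gamma and the brightest cytoplasmic member, was at 0.09 ± 0.10. Of the 9 cytoplasmic genes detected on all arrays 8 had a flow difference above 0, against 3590 of all 7320 genes so detected. The median of the 9 was 0.06. This count uses the brightest probe of each gene, and the probes of Csnk1d, Csnk1g2, Ctnnb1 and Gsk3b lay on both sides of 0.

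Among the nuclear factors 9 of 12 lay above 0 with a median of 0.03, against 3590 of all 7320 genes detected on all arrays. The probes of Bcl9, Tle1, Tle2 and Tle5 did not share a sign for flow. Tle4, a corepressor, was at 0.23 ± 0.14, with all 4 flow arrays above the NF array of the same time. Bcl9l, which links beta-catenin to Pygo proteins, was at 0.14 ± 0.08 on the probe detected on all arrays. Its second probe was detected on both NF arrays and on 0 of 4 flow arrays. By a bound that leaves out array noise it was at least 1.25-fold higher in NF than in RF. This probe passed the filter only through the NF arrays. The probes of Bcl9l thus went opposite ways. Tcf7l2, the main Tcf factor of many tissues, was at -0.15 ± 0.10 and Tcf7l1 at 0.05. Pygo2, which binds Bcl9 proteins, was at 0.11 ± 0.10.

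Arrays were also counted, with no test. Both flows stood above NF at both time points for 8 of the 40 genes, against 12.1% of all genes detected on all arrays, and below for 4 of 40, against 12.7%. All 4 flow arrays lay above both NF arrays for 4 of 40 (Bcl9l, Csnk1e, Fzd7 and Wnt5a), against 6.5%, and below both for 0 of 40, against 6.42%. The ratios of all 40 genes are shown by role.

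**Figure D3:**
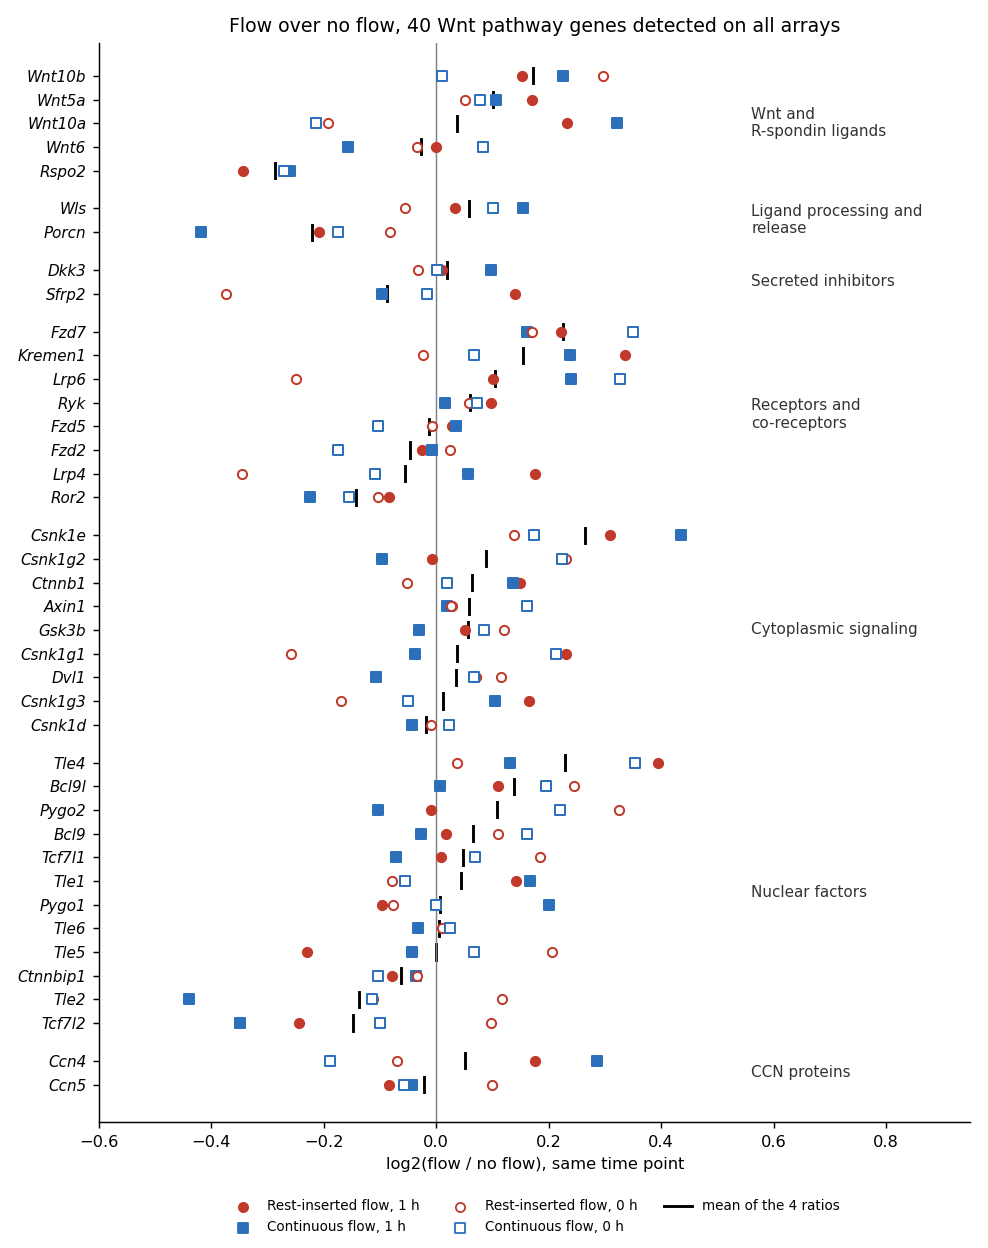
Log2 ratio of flow to no flow at the same time point (x axis) for the 40 members detected on all arrays, grouped by role and sorted by the mean of the 4 ratios (black bars). Red circles are rest-inserted and blue squares continuous flow, filled at 1 h and open at 0 h. All 160 ratios lie within 0.44 of 0 on the log2 scale, and in 28 of the 40 genes the 4 ratios lie on both sides of 0.

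The genes that passed a fold of 0.5 on the log2 scale were all dim. In at least 1 of the 4 ratios this fold was reached by 7 of 49 genes, against 18.2% of all genes, and by 0 of the 40 detected on all arrays, against 7.43%. The 7 were Apc, Apc2, Fzd1, Fzd8, Lrp5, Sfrp1 and Wnt5b. Apc, a scaffold of the destruction complex, was detected on every array but that of NF at 1 h. It had 4.89 with RF and 4.50 with CF, against 3.48 with NF, at 1 h, and 4.27 and 4.32 with RF and CF, against 4.02 with NF, at 0 h. All 4 flow arrays lay above both NF arrays, with a difference of 0.75 ± 0.26 (SE), an unadjusted p of 0.043 and an adjusted p of 0.81 in limma. At 0 h, where all 3 arrays detected it, the mean of both flows was 0.28 above NF.

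Sfrp1, a secreted inhibitor that binds Wnt proteins, was detected on both NF arrays and on 0 of 4 flow arrays. Its measured means were 4.00 with RF and 3.32 with CF, against 4.35 with NF. Intensities under 10 were set to 10, and undetected signals have only an upper bound. By a bound that leaves out array noise, Sfrp1 was at least 1.15-fold higher in NF than in either flow. It passed the filter only through the NF arrays, where it was higher, so this bound is no support for an effect of flow.

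Fzd8, a Frizzled receptor, had the same pattern, with measured means of 3.82 with RF and 3.45 with CF, against 4.41 with NF. By the same bound, again without array noise, it was at least 1.20-fold higher in NF than in RF and 1.19-fold higher than in CF. Fzd8 too passed the filter only through the NF arrays. Apc2 was detected on 1 array, RF at 1 h, so no bound is given for it. Axin2, a target gene and feedback inhibitor of the pathway, was detected on 1 array, CF at 0 h, and Fzd1 on 1 array, NF at 0 h, and neither gives a bound above 1. Lrp5 was detected on 4 arrays, with 4.52 with RF and 3.41 with CF, against 3.67 with NF, at 1 h, and 4.66 with each of RF and CF, against 4.06 with NF, at 0 h.

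No Wnt pathway gene passed the test between the 2 flow patterns. In RF over CF limma called 0 of 82 member probes, the percentage called among all probes was 0, and 3 of 49 genes had an unadjusted p under 0.05, against 4.74% of all probes. These 3 (Apc2, Axin2 and Sfrp1) were each detected on 1 or 2 arrays. RF stood above CF at both time points for 10 of the 40 genes detected on all arrays, against 26.5% of all such genes, and below for 8 of 40, against 24.6%. The median difference over the 40 genes was 0.00, as over all genes.

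Among the 40 the largest difference was that of Lrp6, at -0.36 ± 0.14 (SE) with an unadjusted p of 0.058. Lrp6 had 4.65 with RF against 4.79 with CF at 1 h, and 4.16 with RF against 4.74 with CF at 0 h. Its second probe, detected on 5 arrays, had 4.48 with RF against 3.32, the floor, with CF at 0 h, which is the opposite order. Tle2 was at 0.28 on its brighter probe, with 7.38 with RF against 7.05 with CF at 1 h and 8.06 with RF against 7.82 with CF at 0 h, but at -0.05 on the second. Pygo1, a partner of Bcl9 proteins, was at -0.19, Porcn at 0.15, Tcf7l2 at 0.15 and Wls at -0.14, although the 5 probes of Wls ran from -0.14 to 0.14. Without 1 array Porcn was as low as 0.06 (CF at 1 h left out), Tcf7l2 0.04 (RF at 0 h) and Pygo1 -0.08 (CF at 1 h).

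Among Wnt pathway genes with one sign of difference between 1 h and 0 h in all 3 flow conditions, more were lower than higher at 1 h. At 1 h 17 of the 40 genes detected on all arrays were below 0 h in all 3 flow conditions, against 18.4% of all genes detected on all arrays. Only 3 of 40 (Csnk1d, Ctnnbip1 and Lrp6) were above 0 h in all 3, against 18.5%. The 3 arrays of 1 h lay below all 3 of 0 h for 10 of 40, against 10.2%, and above for 2 of 40, against 10.3%. The 10 were Ccn5, Dkk3, Rspo2, Ryk, Sfrp2, Tcf7l1, Tle2, Tle5, Tle6 and Wnt6. These counts use the brightest probe of each gene. For time, the probes of Csnk1d, Csnk1g2, Ctnnb1, Dkk3, Gsk3b, Ryk and Tle1 lay on both sides of 0. The median difference of the 40 genes was -0.04, with 15 above 0 and 25 below. Over all 7320 genes it was 0.00, with 3793 above 0 and 3527 below. The NF arrays are part of this comparison, so it includes what happens in cultures without flow.

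With the constant variance prior limma called 0 of 82 member probes for 1 h over 0 h, the percentage called among all probes was 0, and 7 of 49 genes had an unadjusted p under 0.05, against 10.3% of all probes. With a prior that follows the intensity, 4 member probes of 3 genes were called lower at 1 h, both of Tle2 and those of Sfrp2 and Tle6, and 0 higher. Of all probes 1.73% were called lower and 0.713% higher in that fit.

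Tle2 encodes a Groucho-type corepressor that binds Tcf factors and silences their targets. It had 7.38 with RF, 7.05 with CF and 7.49 with NF at 1 h, against 8.06, 7.82 and 7.94 with RF, CF and NF at 0 h. Its second probe had 7.0, 7.16 and 7.05 at 1 h, against 7.81, 7.74 and 7.68 at 0 h, in the same order of conditions. On both probes every array of 1 h lay below every array of 0 h. The difference was -0.64 ± 0.09 (SE), a 1.55-fold lower level at 1 h, and -0.67 ± 0.08 on the second probe. Limma's adjusted p was 0.34 and 0.33 with the constant prior, and 1.6e-05 and 9.0e-06 with the intensity trend. With that trend, Tle2 stayed called without the NF array of either time (adjusted p = 0.0032 without 1 h and 0.0038 without 0 h) and not without any RF or CF array.

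Tle6, a divergent member of the same family, had 8.66 with RF, 8.61 with CF and 8.64 with NF at 1 h, against 8.90, 8.92 and 8.89 with RF, CF and NF at 0 h. The 3 arrays of a time point lay within 0.05 of each other at 1 h and within 0.02 at 0 h, and the difference was -0.27 ± 0.06 (SE), and the adjusted p was 0.40 with the constant prior and 0.012 with the trend. Tle5, a short family member that acts on the corepressors themselves, had 9.82, 10.00 and 10.05 with RF, CF and NF at 1 h, against 10.28, 10.14 and 10.08 at 0 h. Its difference was -0.21 ± 0.11, and its second probe gave -0.16. Tle5, Tle2 and Tle6 follow each other on mouse chromosome 10 with 0 coding genes between neighbours. Of the other family members, Tle4 was at -0.34 ± 0.13 and Tle1 at -0.04.

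Sfrp2, a secreted Frizzled-related protein that binds Wnt ligands, had 7.12 with RF, 6.89 with CF and 6.98 with NF at 1 h, against 7.20, 7.56 and 7.58 with RF, CF and NF at 0 h. The RF array at 0 h was the lowest of its time point, and the difference in RF was -0.08, against -0.67 in CF and -0.59 in NF. The fitted difference was -0.45 ± 0.14 (SE), 1.36-fold lower at 1 h, with an adjusted p of 0.45 with the constant prior and 0.0099 with the trend. Neither Sfrp2 nor Tle6 stayed called with the trend when any 1 of the 6 arrays was left out. Dkk3, whose part in Wnt signaling is less clear than that of the other Dkk proteins, was at -0.09 ± 0.07 on its brightest probe and at 0.00 and 0.13 on the others.

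**Figure D4:**
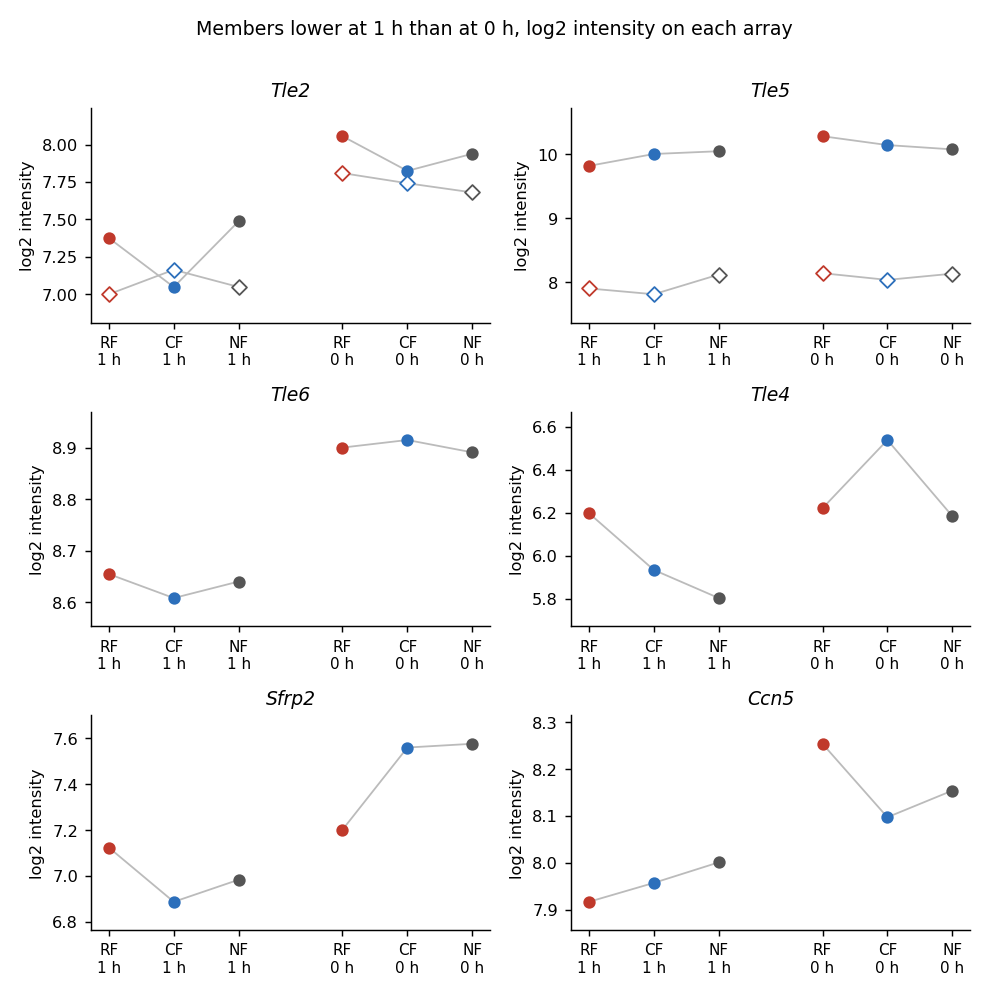
Log2 intensity (y axis) of 6 Wnt pathway genes on each of the 6 arrays, labelled RF, CF and NF at 1 h and 0 h (x axis); filled circles are the probe that represents the gene, open diamonds its second probe, and grey lines join arrays of one time point. In Tle2, Tle6 and Sfrp2 the 3 arrays of 1 h lie below the 3 of 0 h, whereas in Tle4 the RF array at 1 h, at 6.20, lies above the NF array at 0 h, at 6.18.

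The promoters of the genes called with the trend are shown because these genes were called lower together at 1 h, with that of Csnk1e beside them as the gene highest with flow. Of the 49 genes 29 matched a RefSeq promoter by gene identifier (build GRCm38.p6). The 250 bases before the farthest upstream start are printed along the gene, with the letters CCGCCC or their complement GGGCGG, a GC box, in capitals.
Tle2: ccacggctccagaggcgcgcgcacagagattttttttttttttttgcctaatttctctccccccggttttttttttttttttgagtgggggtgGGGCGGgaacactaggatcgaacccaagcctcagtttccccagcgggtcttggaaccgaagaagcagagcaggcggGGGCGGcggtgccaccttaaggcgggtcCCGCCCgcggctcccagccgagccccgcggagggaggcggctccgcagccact
Tle6: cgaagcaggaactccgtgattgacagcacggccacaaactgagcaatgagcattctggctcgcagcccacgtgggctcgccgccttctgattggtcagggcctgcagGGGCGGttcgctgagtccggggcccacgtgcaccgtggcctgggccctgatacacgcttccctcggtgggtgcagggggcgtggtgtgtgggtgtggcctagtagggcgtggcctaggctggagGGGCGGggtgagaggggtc
Sfrp2: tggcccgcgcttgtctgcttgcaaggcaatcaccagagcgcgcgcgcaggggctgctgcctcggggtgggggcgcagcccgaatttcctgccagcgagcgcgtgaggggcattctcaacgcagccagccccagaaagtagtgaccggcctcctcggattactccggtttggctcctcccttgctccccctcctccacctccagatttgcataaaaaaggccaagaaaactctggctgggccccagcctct
Csnk1e: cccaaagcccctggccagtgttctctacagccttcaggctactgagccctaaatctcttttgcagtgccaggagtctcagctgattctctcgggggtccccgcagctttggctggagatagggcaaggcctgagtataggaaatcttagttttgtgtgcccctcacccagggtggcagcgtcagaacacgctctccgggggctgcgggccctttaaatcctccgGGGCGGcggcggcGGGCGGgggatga
The Tle2 stretch is chr10:81575037-81575286 on the + strand, that of Tle6 chr10:81600901-81601150 on the - strand, that of Sfrp2 chr3:83766071-83766320 on the + strand and that of Csnk1e chr15:79442144-79442393 on the - strand. GC boxes were found 3 times in Tle2, 2 times in Tle6, 2 times in Csnk1e and 0 times in Sfrp2. They occurred in 24 of the 29 promoters of members, against 33% of all 27025 promoters, and the members' promoters also held more G and C, with a median of 67.2% against 52% over all. The Tcf and Lef motif letters CTTTGAT or CTTTGAA, searched on both strands, were in 0 of 29, against 7.69% of all promoters. A match is a description of these letters only.

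The matricellular proteins Ccn4 and Ccn5, known as Wnt-induced secreted proteins, differed in sign. Ccn5 had 7.92, 7.96 and 8.0 with RF, CF and NF at 1 h, against 8.25, 8.10 and 8.15 at 0 h, with a difference of -0.21 ± 0.08. Ccn4 was at 0.18 ± 0.11, higher at 1 h with RF and CF and lower with NF. Among the nuclear factors 10 of 12 had a time difference below 0, against 3527 of all 7320 genes detected on all arrays. Their median was -0.09, while the 8 receptors detected on all arrays had a median of 0.02.

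**Figure D5:**
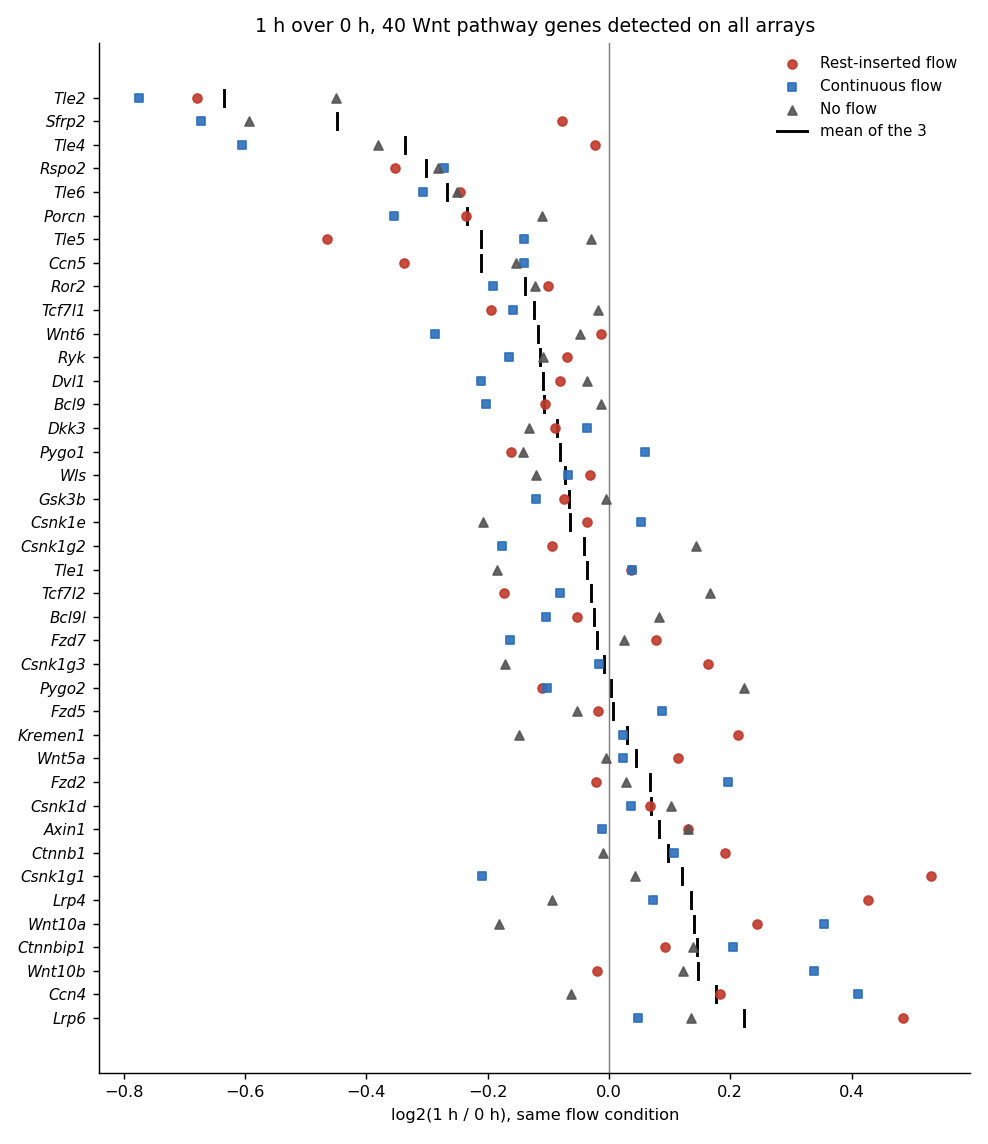
Log2 ratio of 1 h to 0 h within each flow condition (x axis) for the 40 members detected on all arrays, sorted by the mean of the 3 conditions (black bars). Red circles are rest-inserted, blue squares continuous and grey triangles no flow. In 17 genes all 3 points lie below 0 and in 3 genes all lie above.

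Some markers of other cell types stood apart between the time points as well. Egfl7, the 1 endothelial marker past the filter, had 4.48, 4.63 and 4.55 with RF, CF and NF at 1 h, against 4.84, 4.92 and 5.05 at 0 h, and Pdpn, the 1 osteocyte marker, 11.25, 11.21 and 11.30 at 1 h, against 11.45, 11.40 and 11.46 at 0 h. Of the 2 chondrocyte markers Col2a1 was at 0.56 for 1 h over 0 h and Sox9 at -0.02. The mean of the osteoblast markers, Alpl included, lay between 8.82 and 8.88 at 1 h, against 8.81 to 8.98 at 0 h. Single osteoblast markers detected on all arrays went both ways for 1 h over 0 h. Ibsp was at -0.31, Col1a1 at -0.23, Sparc at -0.11, Col1a2 at -0.02 and Sp7 at 0.18. The part of any of these cell types in the time differences of the Wnt pathway genes was not tested.

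Other genes of the pathway, which the symbol rule leaves out, came from 5 lists with 21 of 34, 18 of 32, 22 of 27, 27 of 40 and 32 of 60 genes measured. They are regulators of the destruction complex, membrane and extracellular regulators, nuclear partners of beta-catenin, the planar polarity and calcium branches, and target genes. With the constant prior, limma called 0 genes of each list in either direction, for both flows over NF and for the other 4 comparisons. The median flow differences of the lists were 0.04, -0.01, -0.02, -0.02 and 0.05 in that order, against 0.00 over all genes.

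The gene with the highest flow difference in these lists was Map3k7, the kinase TAK1, which acts in several pathways. Its log2 intensity was 5.03 with RF and 5.11 with CF, against 4.29 with NF, at 1 h, and 5.59 and 5.11 with RF and CF, against 4.16 with NF, at 0 h. The difference was 0.98 ± 0.17 (SE) with an adjusted p of 0.61 with the constant prior and 0.081 with the trend. A second Map3k7 probe, detected on 5 arrays, was at -0.28, the opposite sign. Foxo1, which competes with Tcf factors for beta-catenin, was at -0.32 ± 0.08 and Hipk2, a kinase of nuclear factors, at 0.20 ± 0.08 on its brighter probe and -0.05 on the other. Invs, which turns Dvl toward the planar polarity branch, was at 0.32 ± 0.09 and the syndecan Sdc1 at 0.21 ± 0.09. Siah2, a ubiquitin ligase, was at 0.20 ± 0.10, Ctnnd1, the p120 catenin, at 0.15 ± 0.11, and the glypican Gpc4 at -0.13 ± 0.14. Hipk1, a relative of Hipk2, was at -0.30 ± 0.12 and Mapk8, the kinase JNK1, at -0.25 ± 0.12. Daam2, a formin that binds Dvl, was at -0.30 ± 0.14 on its brighter probe and at 0.24 on the other.

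Time calls in these lists came only with the trend prior. In the membrane list Mest, named after its values were seen, was called lower at 1 h, at -0.70 ± 0.10 (SE), with an adjusted p of 1.7e-05 with the trend and 0.33 with the constant prior. Its 2 other probes were at -0.62 and -0.49. Jun, which is also among the targets, was called lower in the planar polarity list. Of the 32 measured targets 5 were called lower at 1 h (Ccn1, Jun, Snai2, Bmp4 and Efnb1) and 1 higher (Tnfrsf11b), against 1.73% and 0.713% of all probes, and with the constant prior 0. For Ccn1 and Jun the fall was mostly in the flow arrays. From 0 h to 1 h, NF went from 8.39 to 8.30 for Ccn1 and from 6.72 to 6.47 for Jun. The fit has no term for a flow effect that changes with time, so these calls are not of a change shared by the conditions. Efnb1, a ligand of Eph receptors, was at -0.25 ± 0.07 for time and -0.24 ± 0.07 for flow. Tnfrsf11b, osteoprotegerin, the decoy receptor that limits osteoclast formation, had 8.32, 8.39 and 8.27 with RF, CF and NF at 1 h, against 7.82, 8.0 and 7.65 at 0 h. Its difference was 0.51 ± 0.08 (SE), with an adjusted p of 0.34 with the constant prior, and no array of one time overlapped the other. For flow it was at 0.24 ± 0.10 with CF and 0.11 ± 0.10 with RF over NF, neither of them called. By RT-PCR at the end of flow, the paper found this gene lower with continuous flow but not with rest-inserted flow. The array at 0 h was instead higher with CF than with NF.

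Jun, a transcription factor induced early by many stimuli, had 6.41 with RF and 6.60 with CF, against 6.47 with NF, at 1 h, and 7.37 with RF and 7.89 with CF, against 6.72 with NF, at 0 h. Ccn1, a matricellular protein of the same family as Ccn4, had 7.79 with RF and 7.99 with CF, against 8.30 with NF, at 1 h, and 9.18 with RF and 9.41 with CF, against 8.39 with NF, at 0 h. Both genes were above NF at 0 h in each flow, and Ccn1 was below NF at 1 h in each flow. These genes are targets of many other pathways too. Bmp4, a bone growth factor, was lower both with flow and at 1 h, at -0.24 ± 0.08 and -0.46 ± 0.08.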

How the data were processed

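RNA from MC3T3-E1 cells was hybridized to 6 Illumina MouseWG-6 v2.0 arrays, 1 for each flow condition and time point, with 3 experiments pooled on each. All 6 arrays were used. The intensity of each probe was deposited after the authors' background subtraction in GenomeStudio, with no scaling between arrays. The deposited detection p-value of a probe was computed by the authors' software from negative controls. For the deposited log2 values the authors applied quantile normalization, raised values below 10 to 10, took logarithms and kept probes with a detection p under 0.01 on 1 array or more. These steps, repeated on the deposited intensities, gave the same log2 values within 5.0e-08. The detection column of the RF 1 h array repeats the signal for 25281 probes. Detection was there taken from the signal, between 17.824 (highest undetected) and 17.836 (lowest detected) among the 20000 probes with p-values.

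Of 15686 probes, 13393 carried 1 gene symbol of the platform table, 8 several and 2285 none, and 211 RIKEN names were left out, which leaves 13182. Member symbols begin with Wnt, Fzd, Sfrp, Dkk, Axin, Tcf7, Dvl, Rspo, Gsk3, Csnk1, Tle, Bcl9, Pygo or Kremen, or are Lrp4 to Lrp6, Lef1, Ctnnb1, Ctnnbip1, Lgr4 to Lgr6, Porcn, Wls, Nkd, Apc, Apc2, Ror, Ryk, Wif1, Ccn4 or Ccn5. Limma 3.58.1 (R 4.3.3) fitted flow and time point with 2 residual degrees of freedom, in which array noise and any change of the flow effect between time points cannot be told apart, and called at an adjusted p under 0.05. A difference in the mean of both flows is flow minus no flow, and for time 1 h minus 0 h. Bounds for undetected probes set the dimmer group, array by array, at the higher of its own value and the lowest detected log2 value. They take no account of array noise.

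Named genes are the up to 4 brightest of each role, the 6 with the largest differences in each comparison and the 6 with the largest ratio at a single time point. All of these were picked among genes detected on all arrays. Those with the largest differences also had to keep their sign at both time points, or for time in all 3 flow conditions. Their shared sign thus follows in part from the choice. Also named are the panel genes Dkk2, Runx2 and Tnfrsf11b, and 3 in each other list. Others were named after their values were seen. The members, lists and tests were chosen with earlier results of these data known. Alternatives changed the variance prior, normalization, floor, filter, probe choice and model, or left out 1 array.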

Additional observations from a re-analysis of the deposited data

How the results depend on the processing

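In each of the 5 comparisons the count of called Wnt pathway genes was 0 and stayed at 0 under every alternative, with exceptions only for 1 h over 0 h. There a variance prior that follows the intensity called 3 genes lower (Tle2, Sfrp2 and Tle6), and 1 gene (Tle2) when the NF array of 0 h or of 1 h was also left out. The fits with that prior that left out 1 array were added after seeing the data. Leaving out each array in turn with the constant prior gave counts of 0 to 0. The count of genes past a log2 ratio of 0.5 at a single time point was 7, but 2 with values under 20 set to 20 and 0 among probes detected on all 6 arrays. The difference of Lrp6 between RF and CF was -0.36 on its brighter probe and 0.11 as a mean over both probes. Of 342 values of single genes under the alternatives 336 kept their direction and side of the threshold, 5 became called (Tle2, Sfrp2 and Tle6 for time) and 1 reversed. The main fit called 0 of all 13182 probes in any comparison, so staying uncalled says little about how stable a value is. Without 1 array, 10 of 18 fitted differences of single genes moved by over 1.5 times, with no change of call with the constant prior. For flow, Csnk1e was at 0.16 and Porcn at -0.13 without NF at 1 h, Tle4 at 0.11 without RF at 1 h, 0.13 without CF at 0 h and 0.35 without RF at 0 h, and Wnt10b at 0.10 without CF at 1 h and 0.11 without RF at 0 h. For time, Tle4 was at -0.20 without CF at either time. For RF over CF, Tle2 was at 0.17 without CF at 1 h, and Lrp6 between -0.55 and -0.16, Porcn between 0.06 and 0.24, Pygo1 between -0.29 and -0.08 and Tcf7l2 between 0.04 and 0.26 over the arrays left out. As a mean over probes, Tle2 was at 0.12 and Wls at 0.00. No analysis paired by experiment was possible because each array pools 3 experiments. The fit itself sets arrays of one time point, or of one flow, against each other. Precision is limited by the number of arrays, and probes near background by the floor.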

Other observations

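Several members with more than 1 probe detected on all arrays did not agree between probes. For the mean of both flows over NF, the probes of 5 of 15 such members (33.3%) had one sign, against 49.9% of all genes with 2 or more such probes. These shares are not matched for the number of probes, which is 5 for Csnk1d and Wls and 4 for Ctnnb1. For 1 h over 0 h, those of 8 of 15 (53.3%) did, against 58.1%. The members whose probes agreed for flow were Csnk1e, Ccn4, Dkk3, Ryk and Wnt5a. The second Wnt5a probe was 0.34 ± 0.08 (SE) higher at 1 h than at 0 h on the log2 scale, against 0.04 ± 0.07 on the brighter one, with an adjusted p of 0.38 in limma.

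The median residual SD of the fit was 0.0862 on the log2 scale for the 40 members detected on all arrays, against 0.0809 for all genes so detected, and 0.237 for the 9 members detected on 1 to 5 arrays, against 0.31 for all such genes.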
